A study of Mus musculus with 12 samples.

Results

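The 10 genes described here carry dopamine and cyclic AMP (cAMP) signals in the striatum: Gnal, Gng7, Adcy5, Rgs9, Rasd2, Pde10a, Pde1b, Ppp1r1b, Arpp21 and Arpp19. They were taken by name, through their Ensembl mouse gene identifiers, from a deposited table of 21492 genes, and all 10 were measured in every library. The study sequenced RNA from the striatum of Shank3 transgenic (TG) and wild-type (WT) animals, all of them C57BL/6J males aged 70 postnatal days. Synaptosomes, the pinched-off nerve endings with attached postsynaptic membrane that form when brain tissue is homogenized, gave an RNA bound to polyribosomes (polysome) and an input RNA. The 4 groups were TG polysome, WT polysome, TG input and WT input, with 3 libraries each, numbered 1, 2 and 3 in the labels. Strain, sex, age and tissue were the same in all groups. The labels do not give the promoter or the line of the transgene, what a library number stands for, or whether the libraries of a group came from separate animals. The p-values therefore measure the spread between these libraries, which may in part be technical.

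Dopamine acts in the striatum mainly on medium spiny neurons, the GABAergic projection cells that form most of its neurons. In these cells the receptor genes Drd1 and Adora2a act through the stimulatory G protein encoded by Gnal to raise cAMP, while Drd2 acts through inhibitory G proteins to lower it. cAMP activates protein kinase A, which phosphorylates the products of Ppp1r1b, Arpp21 and Arpp19, and phosphodiesterases such as those of Pde10a and Pde1b end the signal.

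Promoter windows are shown for 3 of the genes that the results below set apart. Arpp19 had the smallest difference between library 2 and the other numbers, and Pde1b and Rgs9 had larger ones. With libraries compared within numbers, Rgs9 was lower and Arpp19 higher in polysome than in input RNA in the deposited values. The windows are RefSeq's on GRCm38.p6, from 250 bases before to 50 bases after an annotated start, 5′ to 3′ on the gene's strand, at chr15:103502784-103503083 (+), chr11:109298132-109298431 (-) and chr9:75037364-75037663 (+). Capitals mark the motifs found, which were GGGCGG (known as the GC box, and reading CCGCCC on the opposite strand) and TATAAA (the usual letters of the TATA box).
Pde1b: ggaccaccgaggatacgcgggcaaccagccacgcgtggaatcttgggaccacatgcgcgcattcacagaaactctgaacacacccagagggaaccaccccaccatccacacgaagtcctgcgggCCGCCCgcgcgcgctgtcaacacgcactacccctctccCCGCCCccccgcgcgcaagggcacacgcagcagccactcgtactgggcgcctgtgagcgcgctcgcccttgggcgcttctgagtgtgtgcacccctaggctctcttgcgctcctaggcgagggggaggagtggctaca
Rgs9: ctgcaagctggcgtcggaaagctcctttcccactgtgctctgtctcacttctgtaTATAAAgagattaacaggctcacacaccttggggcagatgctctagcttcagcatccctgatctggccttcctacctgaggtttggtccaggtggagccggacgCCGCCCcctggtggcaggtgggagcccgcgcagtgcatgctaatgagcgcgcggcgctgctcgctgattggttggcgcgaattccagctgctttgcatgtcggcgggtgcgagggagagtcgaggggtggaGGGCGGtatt
Arpp19: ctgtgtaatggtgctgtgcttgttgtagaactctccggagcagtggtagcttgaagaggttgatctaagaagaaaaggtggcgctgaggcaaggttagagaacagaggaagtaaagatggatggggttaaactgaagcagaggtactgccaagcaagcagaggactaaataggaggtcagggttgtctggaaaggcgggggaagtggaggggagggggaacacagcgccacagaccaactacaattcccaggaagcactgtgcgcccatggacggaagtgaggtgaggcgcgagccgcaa
The 4 motifs searched on both strands were the cAMP response element TGACGTCA, its shorter form TGACG, which lies within it, GGGCGG and TATAAA. RefSeq windows were at hand for 8 of the 10 genes, and the window nearest to the annotated gene start was used for each. That window lay 276373 bases from the annotated start in Pde10a and 2216 bases in Arpp21, and within 52 bases in the other 6 genes. GGGCGG was present in 5 of those 8 windows, Pde10a among them, against 35.66% of all 32851 windows of the same length, which count each annotated start of a gene. A second Arpp19 window, 118 bases from the annotated start, holds GGGCGG where the one shown does not. TATAAA was present in 1, that of Rgs9, against 13.62%. It lies there toward the 5′ end of the window and not close to the annotated start. TGACG and TGACGTCA were present in 0 of the 8, against 20.81% and 1.79%. Among the genes not shown, the nearest windows of Rasd2 (library 2 above the other numbers by 1.18, log2) and Arpp21 (0.83) held no motif. Those of Pde10a (1.24), Adcy5 (0.88) and Gng7 (0.80) held GGGCGG. Whether the motifs go with these differences was not tested. A match describes these letters and is not evidence of binding.

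The values are normalized estimated counts as the authors deposited them. Depth, estimated from the spacing of low values, was 77 to 103 M reads in polysome and 62.4 to 85.8 M reads in input libraries. Shank3, the gene named by the transgene, ran from 5012 to 12626 in TG polysome against 1501 to 5848 in WT polysome libraries, and from 5456 to 17500.5 in TG input against 2121 to 5858 in WT input. Its log2 differences of 1.53 ± 0.52 in polysome and 1.57 ± 0.49 in input RNA (SE) did not pass after adjustment (adjusted p = 1.00 in each fraction, limma). All 24 markers of medium spiny neurons, the main cell type of the labelled tissue, were detected in every library, at 193 or above.

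Per kilobase of exonic sequence, all 10 genes were abundant, with WT input means between the 93.9 and the 98.8 percentile of the genes tested. In polysome RNA Ppp1r1b was highest, with 9782 ± 4116 normalized counts per kilobase in TG and 9131 ± 5924 in WT (SD, n = 3), and Rgs9 lowest, with 1539.8 ± 1004 in TG and 1279.7 ± 781 in WT. Pde10a ranked 7 of 10 there in both genotypes (3337 ± 2082 in TG, 2846 ± 1689.9 in WT). By the same exonic measure in input RNA Adcy5, the main adenylyl cyclase of the striatum, was highest, with 9292 ± 3319.8 in TG and 7573 ± 2691 in WT, followed by Pde1b (8389 ± 3751 and 7460.1 ± 3636) and Ppp1r1b (7537 ± 3711 and 6961 ± 3767). In WT input Arpp19 (4699 ± 1747), Pde10a (4641 ± 2163), Rasd2 (4424 ± 2276) and Gng7 (3231 ± 1501) came next. Gnal (2461 ± 977), Rgs9 (2123 ± 830.3) and Arpp21 (2009.5 ± 874) were lowest. In TG input the order was the same, except that Arpp19 stood below Pde10a and Rasd2. Neighbours in the WT input order lay closer together than the SD of either, except that Ppp1r1b stood above Arpp19 by more than the SD of Arpp19 and by less than its own. The order depends on the length used. Per kilobase of the longest coding transcript Pde1b ranked 1, Ppp1r1b 2, Arpp21 3 and Adcy5 4 of 10 in both input groups, and Gng7 ranked 10. The exons of Arpp21 span 17428 bases but its longest coding transcript 3952, per kilobase of which it had 8862 in WT input.

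The widest differences in these genes ran between library numbers, with library 2 the highest in every group. Gnal (chromosome 18), which encodes the stimulatory alpha subunit that couples striatal receptors to adenylyl cyclase, had 26367, 44593 and 17689 normalized counts in TG polysome libraries 1, 2 and 3, and 23256, 39663 and 17036 in WT polysome. In input libraries 1, 2 and 3 it had 25445, 43856 and 21508 in TG and 21171, 40095 and 21219 in WT. Library 2 was the highest in each group, and the TG value exceeded the WT value of the same number throughout. Gng7 (chr10:80948624-81014945, minus strand), a gamma subunit found with the Gnal product in striatal neurons, had 15228, 21028 and 16178 in TG polysome and 10816, 24443 and 18936 in WT polysome. Its input values were 13298, 20848 and 8938 in TG and 8689, 18789 and 9225 in WT. Here too library 2 was highest, while library 1 was lowest in every group but TG input.

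Adcy5 (chr16:35154877-35305738, plus strand), the cyclase that makes most striatal cAMP, had 40290.0, 79694 and 47577 normalized counts in TG polysome libraries 1, 2 and 3 and 29760.5, 71694 and 40798 in WT polysome. In input RNA the values were 48158, 93640.4 and 58455 in TG and 37473, 75474 and 50269 in WT. Library 2 was highest and library 1 lowest in all 4 groups. Pde10a (chr17:8525372-8986648, plus strand) hydrolyses cAMP and cGMP and is concentrated in medium spiny neurons. It had 34511, 72812 and 21320.1 in TG polysome and 25949.7, 61551 and 22215 in WT polysome libraries, and 54973, 107934 and 45178 in TG input and 40783, 91544 and 46562 in WT input. Library 2 stood above the other two in each group, and each polysome value was below the input value of the same number and genotype. Pde1b (chr15:103503034-103530052, plus strand), a phosphodiesterase activated by calcium and calmodulin, had 40889, 72092 and 24202 in TG polysome, 28021, 69473 and 21604 in WT polysome, 42615, 66698 and 26482 in TG input and 29139, 62906 and 28719.6 in WT input. Its library 2 was again the highest throughout.

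Ppp1r1b (chr11:98348404-98357796, plus strand) encodes the phosphoprotein that inhibits protein phosphatase 1 once protein kinase A has phosphorylated it. Its values were 25669, 41901 and 18352 in TG polysome libraries 1, 2 and 3, 17379.9, 46748 and 16075 in WT polysome, 20161, 33763 and 12285 in TG input and 15361, 33032 and 12756 in WT input. Library 2 was highest and library 3 lowest in every group. Arpp21 (chr9:112065091-112235938, minus strand), a protein kinase A substrate that binds calmodulin, had 36922, 49578 and 23243 in TG polysome, 30018, 45192 and 25876 in WT polysome, 36124, 53566 and 23387 in TG input and 28153, 52472 and 24442 in WT input, with the same order of libraries. Arpp19 (chr9:75037614-75060313, plus strand), a kinase substrate that inhibits protein phosphatase 2A when phosphorylated, had 33114, 44712 and 28640.5 in TG polysome and 28283, 40503 and 25508 in WT polysome. In input RNA it had 24307, 31963 and 16234 in TG and 21516, 32704 and 15659 in WT, again in that order, and each polysome value exceeded the input value of its number and genotype.

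Rgs9 (chr11:109225355-109298129, minus strand) speeds the shut-off of inhibitory G proteins, including those under dopamine and opioid receptors. It had 8621, 16778 and 4118 in TG polysome libraries 1, 2 and 3, 7041, 13635 and 3856 in WT polysome, 14157, 22129 and 9556 in TG input and 10439, 19689.9 and 10564 in WT input. The polysome values were the lower ones in every pair, and library 2 was the highest of each group. Rasd2 (chr8:75213944-75224113, plus strand), a striatal Ras-like GTPase that dampens signalling from dopamine receptors, had 18683, 33844 and 14752 in TG polysome and 12034, 32603 and 14856 in WT polysome. In input RNA it had 13453, 26452 and 9509 in TG and 9951, 22394 and 9802 in WT, below polysome in every pair. Exons of Gnal and Arpp21 overlap those of a gene on the other strand that is also in the table (Mppe1 and 2900079G21Rik). The library kit keeps strand, but whether counting used it is not given in the sources used here.

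**Figure D1:**
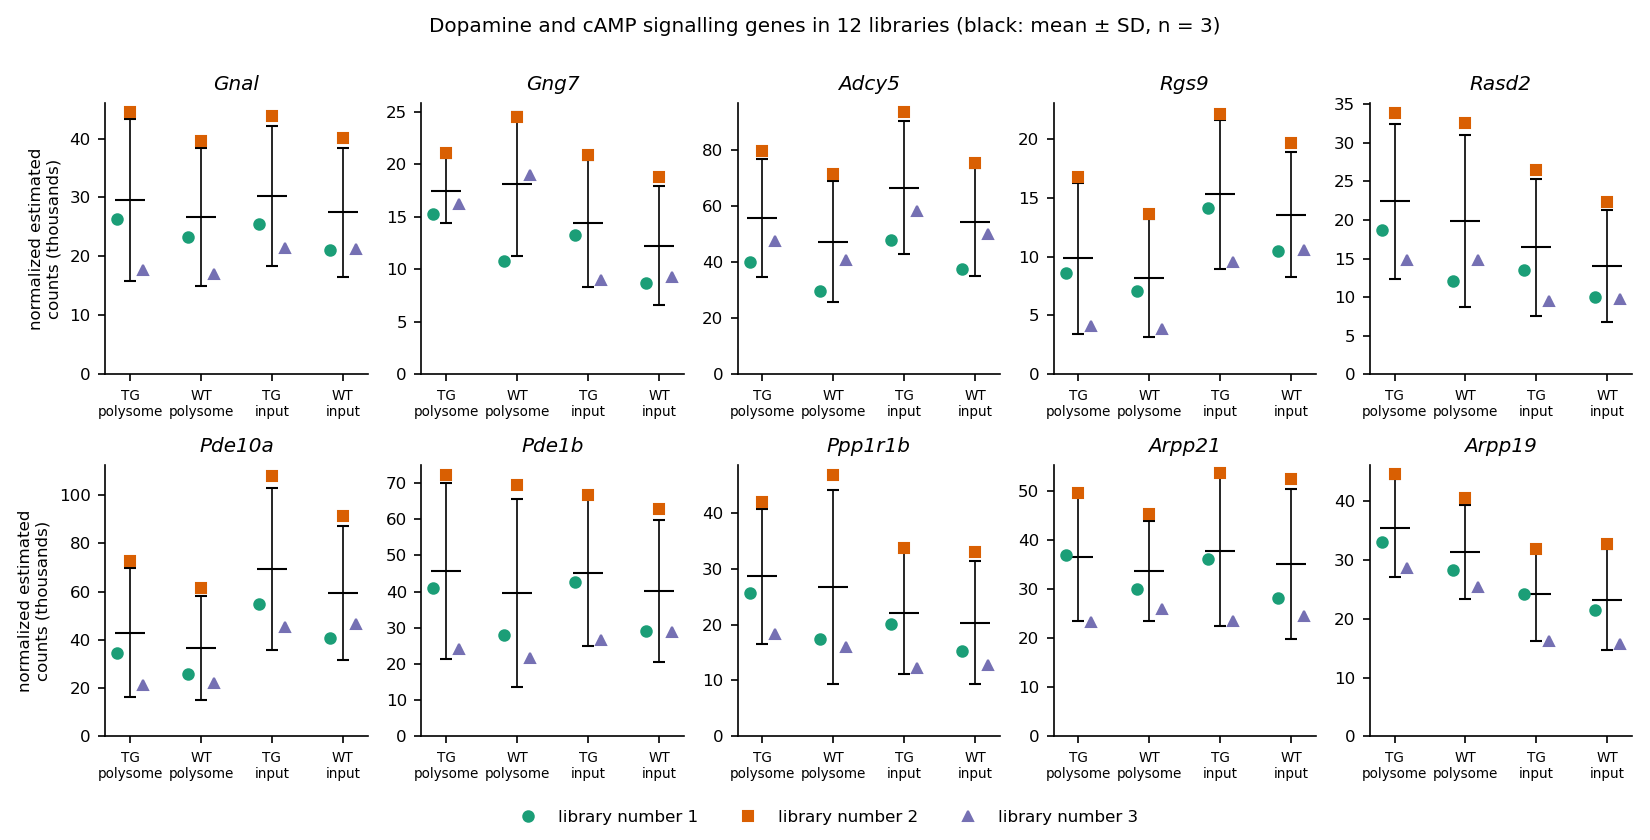
Normalized estimated counts (k, y axis from 0) of the 10 genes in TG polysome, WT polysome, TG input and WT input libraries; symbols give the library number, black lines the mean ± SD of 3 libraries. Library number 2 is the highest point in every group of every gene, while TG and WT groups overlap.

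All 10 genes differed between library numbers. A moderated F test across 12 libraries, with the group as covariate, called them at adjusted p from 8.22e-05 (Ppp1r1b) to 0.00867 (Gng7; limma, Benjamini-Hochberg over 16962 genes), where 27.7% of the genes tested were called. Library 2 was the highest of the 3 in all 4 groups for 10 of 10 genes, which held for 10.5% of the genes tested, while 9.63% were lowest there in all groups. Library 2 exceeded the mean of libraries 1 and 3 by 1.24 in Pde10a, 1.20 in Pde1b, 1.19 in Ppp1r1b, 1.18 in Rasd2 and 1.18 in Rgs9 (log2). The difference was 0.97 in Gnal, 0.88 in Adcy5, 0.83 in Arpp21, 0.80 in Gng7 and 0.66 in Arpp19. The median over the 10 genes was 1.07, beside 0.042 over all genes tested, and 0.731% (Pde10a) to 4.3% (Arpp19) of genes had a difference at least as large. The F test calls a gene for any difference among the 3 numbers, and library 2 was singled out after its values were seen. Both fractions showed the difference separately, since all 10 genes were called in polysome libraries alone (26.5% of genes called) and in input libraries alone (20.5%). Input and polysome libraries of a number may share their tissue, which would make the p-values over 12 libraries too small.

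Markers of some cell types moved with these genes. Of 24 medium spiny markers that are not among the 10 genes, 21 were called by number (median of the library 2 difference 0.92), and in 19 of those library 2 was highest in all 4 groups. Their summed level was 482069 to 588289 in libraries numbered 2, 261814 to 346188 in those numbered 1 and 258619.7 to 325799 in those numbered 3. None of these 24 markers was at 0 in any library. Of 16 markers of cortical excitatory neurons 13 were called, and library 2 was lowest in all 4 groups in 12 of them and highest in 1, Nrgn. Slc17a7, named like Nrgn after its values were seen, was at -1.24 (adjusted p = 0.000207, limma), and the summed levels were 98263 to 128800.2 in number 2, 143389.5 to 205350.0 in number 1 and 167076 to 234054 in number 3. Of 11 oligodendrocyte markers 9 were called, 8 of them with library 2 highest in all groups. Microglial markers were called in 6 of 10, but library 2 was highest or lowest in all groups in 0 of them. Their library 2 difference was below 0 in all 10, with a median of -0.20. Of 10 interneuron markers 6 were called (4 highest and 1 lowest in library 2 throughout), of 10 astrocyte markers 3 (0 and 1), of 5 dopaminergic markers tested 2 (0 and 1), and of 10 endothelial and mural markers 1 (0 and 0). With the mean level of the medium spiny markers as a covariate, 0 of the 10 genes were called by number, and 478 genes in all. Those markers differ between the numbers themselves, so that fit compares what is left after them. Whether the makeup of cells differed between numbers was not tested, and in bulk RNA fewer cells of a type and less RNA per cell cannot be told apart.

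**Figure D2:**
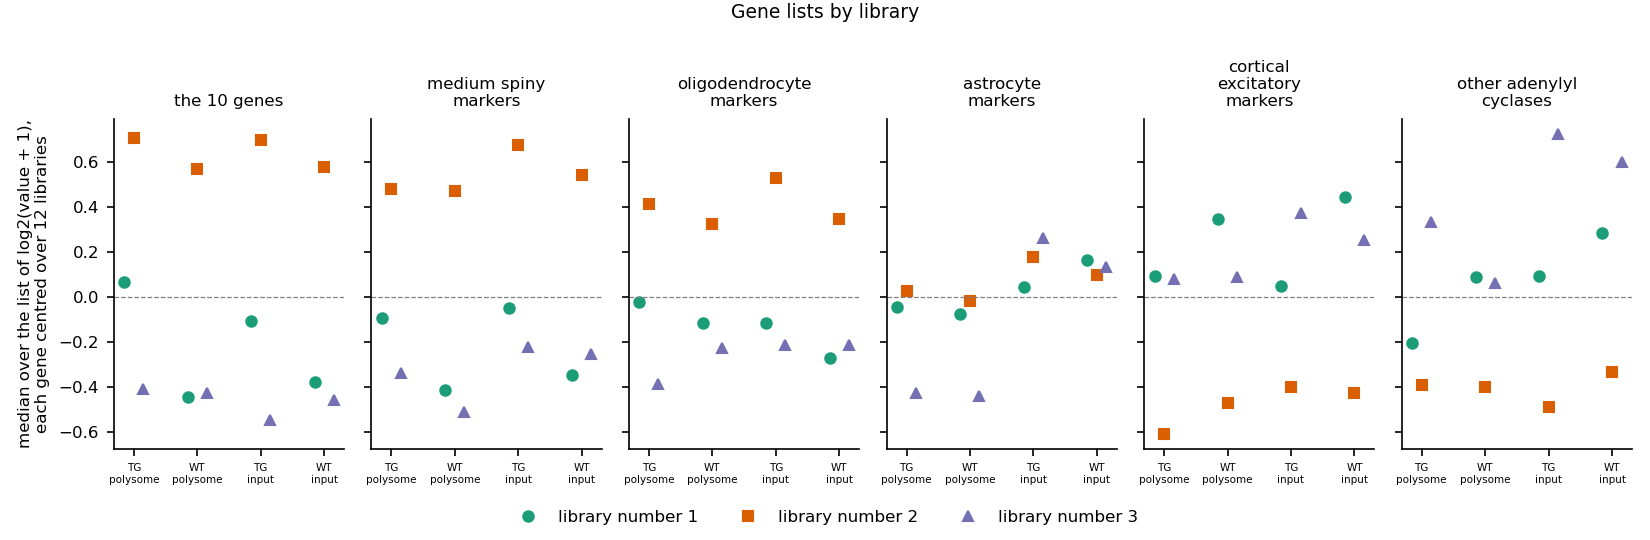
Median over each gene list of log2(value + 1), every gene centred on its mean over 12 libraries, for TG polysome, WT polysome, TG input and WT input; symbols give the library number. Library number 2 is highest for the 10 genes, the medium spiny markers and the oligodendrocyte markers, and lowest for cortical excitatory markers and the other adenylyl cyclases.

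Other genes of the pathway are given by how many the F test called, beside the 27.7% called of all genes, and in how many of those library 2 was highest or lowest in all 4 groups. Of 14 measured receptor genes 10 were called, and library 2 was highest in 8 and lowest in 0. Adora1, the inhibitory adenosine receptor, was called (adjusted p = 0.00378, limma), but its library 2 lay close to the mean of the other two (-0.093). Of the other 7 adenylyl cyclases 5 were called, with library 2 highest in 0 and lowest in 4, and Adcy8 had the lowest difference at -1.14 (adjusted p = 0.000347). Of 21 G protein genes 11 were called, with library 2 highest in 2 and lowest in 4. Ric8b, a chaperone of the Gnal product, was highest at 0.96 (adjusted p = 0.000189), and Gng4, another gamma subunit, lowest at -0.85 (adjusted p = 0.00092). Gnas, the more widely expressed stimulatory alpha subunit, was lowest in library 2 in all 4 groups (-0.56, adjusted p = 0.00544), where Gnal was highest. Gnas was picked for this contrast after its values were seen.

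Of 16 other phosphodiesterases 8 were called, with library 2 highest in 5 and lowest in 3. Named from them are Pde7b, a cAMP-specific enzyme, at 1.101 (adjusted p = 5.02e-05) and Pde5a, a cGMP-specific one, at -0.76 (adjusted p = 0.00117). Of 16 protein kinase A subunits, inhibitors and anchors 4 were called, or 25%, which is near the share of all genes. Library 2 was highest in 3 and lowest in 0 of them, with the anchor Akap5 at 0.72 (adjusted p = 0.00804) and the regulatory subunit Prkar1b at -0.36 (adjusted p = 0.0372). Of 22 phosphatases and kinases that act on these substrates 9 were called, with library 2 highest in 6 and lowest in 0, led by the calcineurin subunit Ppp3ca (0.76, adjusted p = 0.00232). Ensa, the close relative of Arpp19, was at -0.045 and was not called (adjusted p = 0.770); it was named after its values were seen. Of 14 RGS proteins, partners and Rasd1 tested 8 were called, with library 2 highest in 5 and lowest in 1. Rgs8 was at 1.1004 (adjusted p = 0.000158). Rasd1, the closest relative of Rasd2, lay the other way at -1.48 (adjusted p = 0.00267), on low levels that averaged 48.2 ± 25.1 normalized counts in WT input (SD, n = 3). Of 15 targets of cAMP and calcium 5 were called, or 33.3%, also near the share of all genes. Library 2 was highest in 3 and lowest in 1 of them, with Itpr1, an intracellular calcium channel, at 0.49 (adjusted p = 0.0136, limma).

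Library number took most of the variation of these genes. Of the sum of squares of log2(value + 1) over the 12 libraries, number accounted for 93.9% in Gnal, 93.1% in Arpp21 and 91.1% in Pde1b, and for the least, 55.7%, in Gng7. The median over the 10 genes was 80.6%, beside 74.7% over the medium spiny markers and 25.4% over all genes tested. Fraction accounted for 34.6% in Arpp19, 28% in Rgs9 and 27.7% in Pde10a, but for 0.059% in Arpp21, 0.286% in Pde1b and 0.473% in Gnal. Its median was 11.6% over the 10 genes, beside 30.4% over all genes tested, so only Arpp19 stood above that median. Genotype took a median of 1.9%, beside 1.18% over all genes tested, the largest share being 8.68% in Adcy5.

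**Figure D3:**
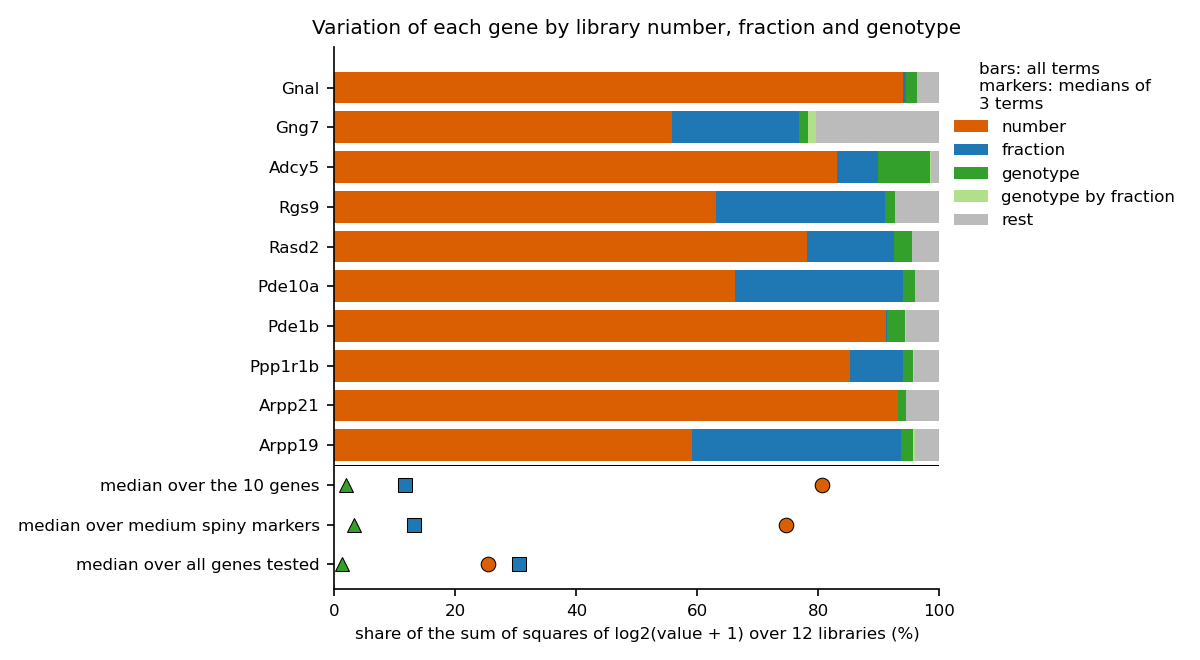
Share (%) of the sum of squares of log2(value + 1) over 12 libraries by library number, fraction, genotype, their interaction and the rest, one bar per gene; markers below give medians over the 10 genes, the medium spiny markers and all genes tested. Number takes the largest share in each of the 10 genes, with a median of 80.6% against 25.4% over all genes.

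With group means removed, the 45 pairs among the 10 genes had Pearson r from 0.62 to 0.99 over the 12 libraries, with a median of 0.92. The genes most like their mean, among 14302 candidates whose log2 level averaged 5 or more, were Ptpn7 (r = 0.988), Gpr6 (0.985), Cyld (0.984), Dach1 (0.984) and Gm39043 (0.981). With group means removed they were Cd4 (0.998), Hpca (0.992), Sgk3 (0.992), Dach1 (0.991) and Gm39043 (0.99). Gpr6 is one of the medium spiny markers and of the receptor list. These points share 3 library numbers, their depth and their makeup of cells, so the correlations describe the same difference between numbers as the values above.

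The genotype comparison asked which of these transcripts differ with the Shank3 transgene. All 10 genes averaged higher in TG than in WT libraries on the log2 scale in polysome and in input RNA, but none passed the test in either fraction, and 0% of the genes tested were called in each (limma). Unadjusted p fell under 0.05 for 53 of 16312 genes in polysome and 80 of 16341 in input RNA, and for 0 of the 10 genes. Both counts are well below a share of 0.05 of the genes. This fit leaves the differences between library numbers in its error, so the lack of calls does not show that genotypes are alike. In polysome RNA Adcy5 had the largest difference at 0.27 ± 0.37 (log2, SE), followed by Pde1b (0.25 ± 0.50), Rgs9 (0.23 ± 0.57) and Rasd2 (0.23 ± 0.42). Gng7 was last at 0.016 ± 0.30. In input Adcy5 was again first at 0.30 ± 0.32, followed by Gng7 (0.24 ± 0.38), Rasd2 (0.21 ± 0.43) and Pde10a (0.21 ± 0.40). Pde1b (0.17 ± 0.40), Rgs9 (0.15 ± 0.35), Gnal (0.14 ± 0.34), Ppp1r1b (0.12 ± 0.44), Arpp21 (0.11 ± 0.37) and Arpp19 (0.065 ± 0.32) had smaller ones. TG and WT ranges overlapped for all 10 genes in both fractions. Non-overlapping groups with TG higher made up 1.37% of genes in polysome and 1.23% in input RNA, and with TG lower 0.999% and 1.39%. The 95% interval for Ppp1r1b in input ran from -0.89 to 1.14 around 0.12 (log2), and from -0.14 to 0.38 with the library number as a block. With that block the SE was 0.14 for Adcy5 in polysome and 0.11 in input RNA, where its interval ran from 0.057 to 0.54.

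Compared within library numbers, the differences were uneven. Adcy5 was higher in the TG than in the WT library of numbers 1, 2 and 3 by 0.44, 0.15 and 0.22 in polysome and by 0.36, 0.31 and 0.22 in input RNA (log2). Gnal was higher by 0.18, 0.17 and 0.054 in polysome and 0.27, 0.13 and 0.02 in input RNA. These were the 2 genes with TG higher in all 3 numbers of input, which held for 9.52% of the genes tested. Rgs9 (0.29, 0.30 and 0.095), Pde1b (0.55, 0.053 and 0.16) and Arpp19 (0.23, 0.14 and 0.17) joined them in polysome RNA, where 11.1% of the genes tested did so. None of the 10 was lower in all 3 numbers, which held for 8.34% of genes in polysome and 10.2% in input RNA. Rasd2 differed by 0.63, 0.054 and -0.01 in polysome and by 0.43, 0.24 and -0.044 in input RNA. Ppp1r1b differed by 0.56, -0.16 and 0.19 in polysome and by 0.39, 0.032 and -0.054 in input RNA. Number 1 gave the largest difference for all 10 genes in input. With the replicate number as a block Adcy5 had an unadjusted p of 0.0208 in input and an adjusted p of 1.00, and no call was made among the 10 genes in either fraction. The block called 0.00613% of all genes in polysome RNA, all of those higher, and 0% in input.

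Most medium spiny markers averaged higher and most cortical excitatory markers lower in TG, with none called. The median over the 10 genes was 0.20 in polysome and 0.16 in input RNA, beside 0.01 and -0.0086 over all genes tested. Medium spiny markers were higher in TG in 22 of 24 in each fraction, with medians of 0.14 in polysome and 0.17 in input RNA. Cortical excitatory markers were lower in 13 of 16 in polysome and 14 of 16 in input RNA. Oligodendrocyte markers were higher in 9 of 11 in polysome and 11 of 11 in input RNA. With the medium spiny markers as covariate, 6 of the 10 genes took a negative difference in polysome and 8 in input RNA. Leaving out 1 library also turned the sign, for all 10 genes in polysome RNA and for every gene but Adcy5 in input. Those fits had no block, so the libraries left were not balanced by number between genotypes. In block fits without a whole number, only leaving out number 1 turned signs. It did so for Gng7 and Arpp21 in polysome RNA and for Ppp1r1b, Pde1b and Arpp21 in input. No gene of the other pathway lists was called by genotype in either fraction. The receptors were higher in TG in 11 of 14 in each fraction (medians 0.20 in polysome and 0.21 in input RNA), and the other adenylyl cyclases in 4 of 7 in polysome and 3 of 7 in input RNA.

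**Figure D4:**
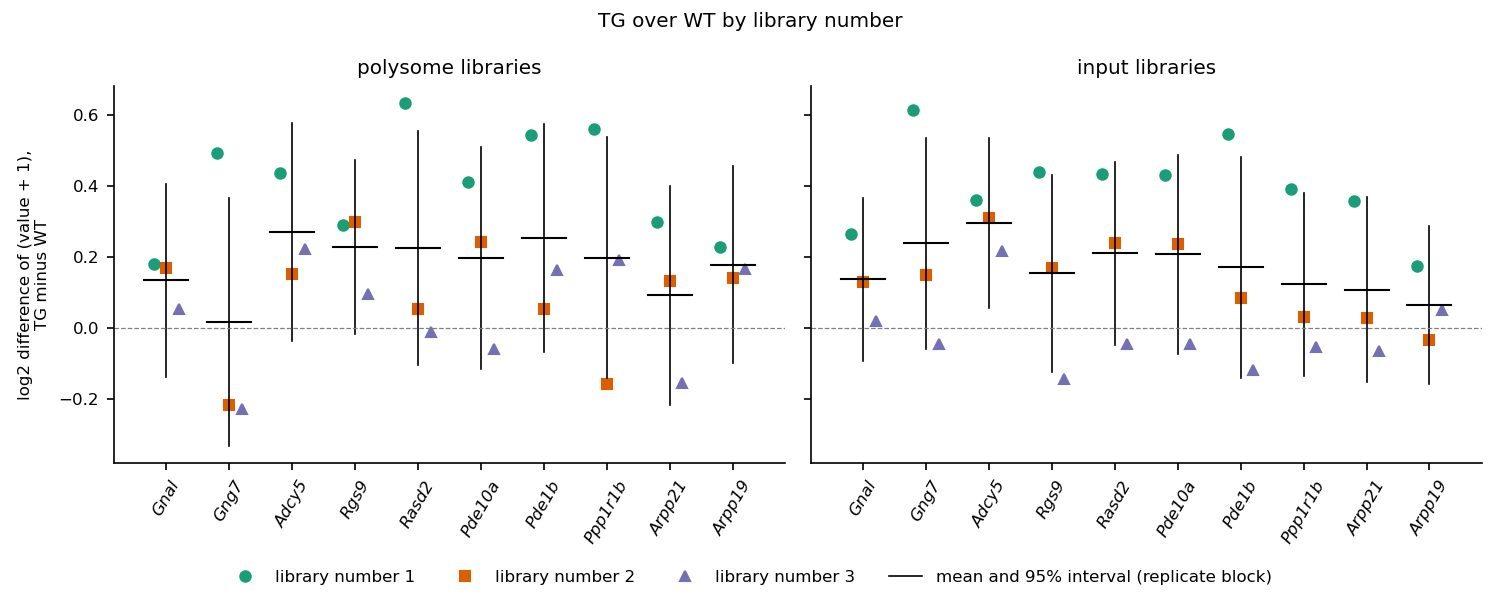
Log2 difference of (value + 1), TG minus WT, of each gene in polysome (left) and input (right) libraries, by library number, with the mean and 95% interval of the fit with the replicate block. Adcy5 lies above 0 in all 3 numbers of both fractions; number 1 gives the highest point of all 10 genes in input.

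The comparison of polysome with input RNA asked which transcripts were more or less represented on synaptosomal ribosomes. In the deposited values Pde10a and Rgs9 were lower in polysome RNA in both genotypes, and Arpp19 and Rasd2 higher, once same-numbered libraries were compared. Without the block none of the 10 genes was called, where 18.1% of genes were called in TG (8.19% higher, 9.86% lower) and 14% in WT (5.36% higher, 8.59% lower). With the replicate block 5 of 10 were called in each genotype, 3 higher and 2 lower. The shares called among all genes were 33.2% in TG and 29.8% in WT, that is 16.7% higher and 16.6% lower in TG, and 13.9% higher and 15.9% lower in WT. Differences are given as polysome minus input on the log2 scale with the SE of the block fit. The deposited values summed to 62.2 to 74.3 M in polysome libraries and to 95.5 to 112.6 M in input libraries. The directions therefore hold for the deposited scaling, under which the median gene differed by 0.03 in TG and 0.026 in WT. As shares of each library's sum, polysome values would stand higher against input, and a gene lower here need not be lower. Such shares were not tested.

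Pde10a differed by -0.77 ± 0.15 in TG (adjusted p = 0.00631, limma with the replicate block) and by -0.76 ± 0.15 in WT (adjusted p = 0.00835). By number it differed by -0.67, -0.57 and -1.08 in TG and by -0.65, -0.57 and -1.07 in WT, so that number 3 moved most. Rgs9 differed by -0.78 ± 0.21 in TG (adjusted p = 0.019) and by -0.85 ± 0.21 in WT (adjusted p = 0.0161). Its pairs gave -0.72, -0.40 and -1.21 in TG and -0.57, -0.53 and -1.45 in WT. Adcy5 was lower in every pair, at -0.26 ± 0.12 in TG and -0.24 ± 0.12 in WT, but was not called (adjusted p = 0.123 and 0.166), and its sign turned with the trend on coding transcript length removed (0.065 in TG, 0.052 in WT).

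Arpp19 was higher in polysome RNA by 0.58 ± 0.13 in TG (adjusted p = 0.0111) and by 0.47 ± 0.13 in WT (adjusted p = 0.0287). Rasd2 was higher by 0.49 ± 0.12 in TG (adjusted p = 0.0151) and by 0.47 ± 0.12 in WT (adjusted p = 0.0204), with pairs of 0.47, 0.36 and 0.63 in TG and 0.27, 0.54 and 0.60 in WT. Ppp1r1b was higher in every pair and called in TG (0.41 ± 0.12, adjusted p = 0.0294) but not in WT (0.34 ± 0.12, adjusted p = 0.0648). Gng7 was called in WT (0.58 ± 0.19, adjusted p = 0.0473) but not in TG (0.35 ± 0.19, adjusted p = 0.181). For neither gene did the interaction of genotype and fraction pass (adjusted p = 1.00 with and without the block). Gnal (-0.069 ± 0.13 in TG, -0.066 ± 0.13 in WT), Pde1b (-0.026 ± 0.14 in TG, -0.11 ± 0.14 in WT) and Arpp21 (-0.03 ± 0.12 in TG, -0.014 ± 0.12 in WT) were near 0, with pairs of both signs. In all 3 numbers of both genotypes Ppp1r1b, Gng7, Arpp19 and Rasd2 were higher and Pde10a, Rgs9 and Adcy5 lower. Of all genes tested, 32.9% were higher and 30.2% lower in all 3 numbers in TG, and 31.5% and 30.1% in WT. These shares count each genotype alone, and the share that held in both genotypes at once was not computed. Polysome and input ranges overlapped for all 10 genes in both genotypes; groups did not overlap, with polysome higher or lower, in 17.6% and 18% of genes in TG and in 17.7% and 18.5% in WT.

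The calls with the block were repeated after removing the trend of polysome over input differences on transcript length across all genes, an alternative added after the data were seen. Arpp19 was called with the trend on exonic length removed (0.64 in TG, adjusted p = 0.0101; 0.53 in WT, adjusted p = 0.0239) and with the trend on the longest coding transcript removed (0.67 and 0.55). Pde10a lost its call in both, at -0.33 in TG (adjusted p = 0.138) and -0.36 in WT (adjusted p = 0.118) for exonic length, and at -0.40 and -0.44 (adjusted p = 0.0716 and 0.0602) for the coding transcript. Rgs9 was called in WT with either length (-0.71 and -0.82) and in TG with the coding transcript (-0.75, adjusted p = 0.0248), but not with exonic length (-0.62, adjusted p = 0.0513). Rasd2 missed the threshold in WT with exonic length (0.38, adjusted p = 0.052). Ppp1r1b in TG was called with neither length, and Gng7 in WT with the coding transcript (0.60, adjusted p = 0.0449) but not with exonic length (0.54, adjusted p = 0.0689). Arpp21 became a call with exonic length (0.52 in TG and 0.49 in WT) but not with the coding transcript (0.053 and 0.06). In fits with the block that left out number 1, 2 or 3, Pde10a was called in each in TG and without number 1 or 3 in WT. Rgs9 was called without number 3 in TG and without number 1 or 3 in WT, and Arpp19 and Rasd2 without number 3 in both genotypes. Ppp1r1b and Gng7 were called in none of these fits.

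**Figure D5:**
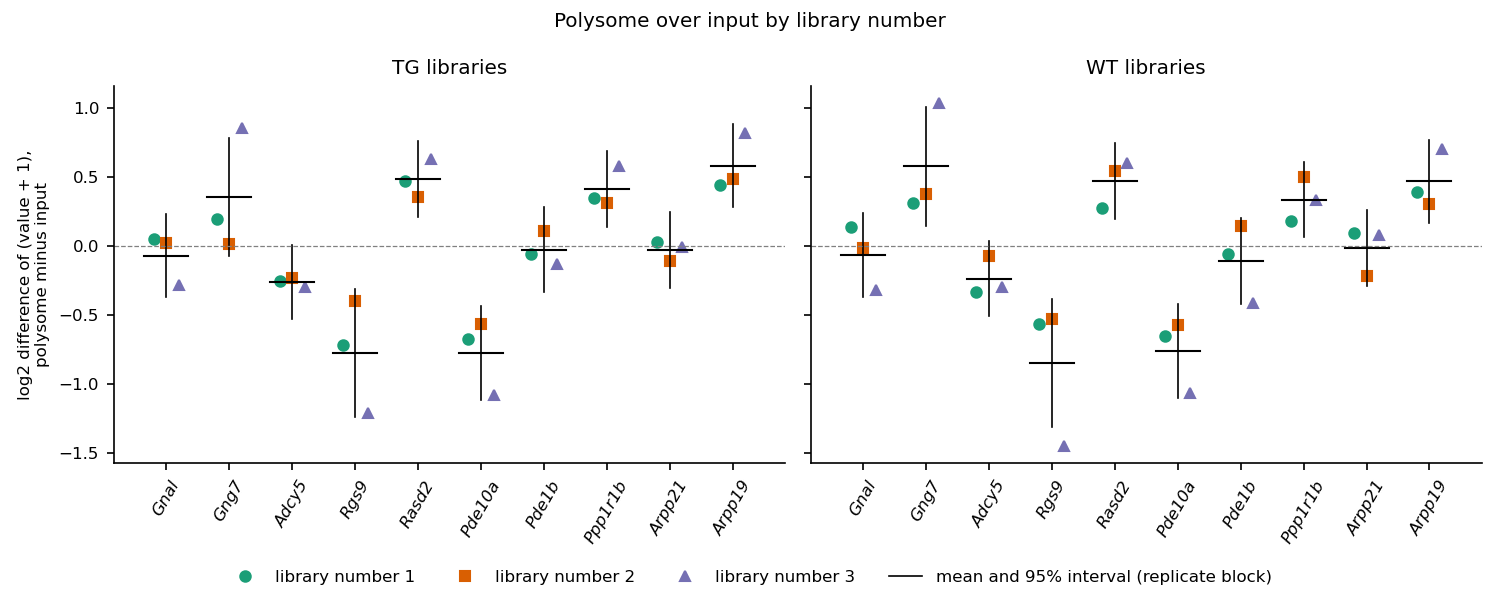
Log2 difference of (value + 1), polysome minus input, of each gene in TG (left) and WT (right) libraries, by library number, with the mean and 95% interval of the fit with the replicate block. Pde10a and Rgs9 lie below 0 and Rasd2, Ppp1r1b and Arpp19 above 0 in all 3 numbers of both genotypes; number 3 lies farthest from 0 for Pde10a, Rgs9, Gng7, Rasd2 and Arpp19.

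Other genes of the pathway passed the test without the block. Of all genes tested, 8.19% were then called higher and 9.86% lower in TG, and 5.36% and 8.59% in WT. Of 16 protein kinase A subunits, inhibitors and anchors 7 were lower and 1 higher in TG polysome RNA, and 6 were lower and 1 higher in WT. The anchor Akap7 was lowest, at -1.44 ± 0.26 in TG (adjusted p = 0.00462) and -1.21 ± 0.26 in WT (adjusted p = 0.0116), while the catalytic subunit Prkaca rose by 0.57 ± 0.13 in TG and 0.55 ± 0.13 in WT (adjusted p = 0.0131 and 0.0185, limma). Phosphatases and kinases gave 4 higher and 0 lower of 22 in each genotype, led by the calcineurin subunit Ppp3cb (0.94 ± 0.21 in TG, 0.80 ± 0.21 in WT). Of 21 G protein genes 2 were higher in TG and 1 in WT, led by Gnb2 (1.01 ± 0.24 in TG, 0.93 ± 0.24 in WT), and Gng13 was lower in both (-1.88 ± 0.27 in TG, -1.58 ± 0.27 in WT). Targets of cAMP and calcium were lower in 3 of 15 in each genotype, with Rapgef4, a guanine nucleotide exchange factor activated by cAMP, at -1.06 ± 0.16 in TG and -0.93 ± 0.16 in WT, and Crem higher in TG (0.71 ± 0.22). Pde9a was the one phosphodiesterase called, in TG (-0.60 ± 0.16), and Rgs7 the one RGS protein, in WT (-0.59 ± 0.17). None of the receptors or of the other adenylyl cyclases was called in either genotype. The replicate block changed these counts. With it, 16.7% of all genes tested were called higher and 16.6% lower in TG, and 13.9% and 15.9% in WT. Protein kinase A subunits, inhibitors and anchors were then lower in 8 and higher in 1 in TG, and lower in 9 and higher in 1 in WT. Phosphatases and kinases were higher in 7 and lower in 2 in TG, and higher in 5 and lower in 0 in WT. G protein genes were higher in 6 in each genotype, and lower in 1 in TG and 2 in WT. Targets of cAMP and calcium were higher in 1 and lower in 4 in each genotype. Receptors were higher in 1 and lower in 2 of 14 in each, and 1 of the 7 other adenylyl cyclases was lower in each. Phosphodiesterases were lower in 4 of 16 in TG and 5 of 16 in WT, with 0 higher. RGS genes were higher in 1 and lower in 1 of 14 in TG, and higher in 2 and lower in 1 in WT. The counts of receptors, other adenylyl cyclases and RGS genes were near or below the shares of all genes. Medium spiny markers had a median of -0.15 in TG, where 1 of 24 was called lower, and -0.094 in WT, where 2 were. With the block, 4 were higher and 9 lower in TG, and 3 higher and 6 lower in WT. Microglial markers were higher in 6 of 10 in TG and 5 of 10 in WT with the block. Without it they were higher in 3 in TG and 0 in WT. With the block, cortical excitatory markers were higher in 5 and lower in 2 of 16 in TG (WT 4 and 3). Oligodendrocyte markers were at 3 and 3 of 11 (WT 3 and 1), and astrocyte markers at 2 and 3 of 10 (WT 1 and 2). Interneuron markers were at 1 and 1 of 10 (WT 2 and 1), and dopaminergic markers at 0 and 1 of 5 (WT 0 and 2). Endothelial and mural markers were at 1 and 0 of 10 in each. The part of these cell types in the differences of the 10 genes was not tested. Medians over all genes tested were 0.03 in TG and 0.026 in WT.

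Whether the genotype difference changed between fractions was tested as an interaction. For the 10 genes it ran from -0.22 ± 0.53 in Gng7 to 0.11 ± 0.44 in Arpp19 (log2, genotype effect in polysome minus that in input), with a median of 0.0062, and 0% of the 16962 genes tested were called, with 94 under an unadjusted p of 0.05. The 95% interval for Pde10a ran from -1.56 to 1.54 without the block and from -0.49 to 0.47 with it.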

How the data were processed

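RNA of striatal synaptosomes was measured in 12 libraries, 3 in each of 4 groups, prepared with the TruSeq Stranded Total RNA kit per the labels' protocols. The values are a signal, the authors' normalized estimated counts per gene, used as deposited. Salmon 1.1.0, R 3.6.2, DESeq2 1.26.0 and GRCm38 are named per the submitters' processing notes. Which annotation was used, how transcripts were summed and how the values were scaled is not given in the sources used here. Whole reads could not be recovered, since only 32.5% to 46.0% of the low values, the ones checked, came within 0.1 of a whole read. No count test was run for that reason. The table had 21492 genes, of which 21465 matched GENCODE M21; all 12 columns were used and no pair was identical.

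Values were taken as log2(value + 1) and fitted with limma 3.58.1 in R 4.3.3, with a mean-variance trend, over genes of at least 10 in at least 3 fitted libraries. Calls used Benjamini-Hochberg adjusted p under 0.05 over all genes tested. Genotype was fitted within each fraction, and polysome over input, the interaction and library number over all 12 libraries. Library numbers paired the samples by their values: deviations from group means correlated at 0.24 to 0.55 over 18 same-numbered pairs and at -0.41 to -0.00088 over 36 others, although no label states the meaning of a number. Deviations within a group cancel out, so positive correlations within numbers force negative ones between numbers on average. The second range is therefore not separate evidence of pairing. Scaling by the trimmed mean of M values was computed directly. The fits without block, covariate or length trend were tested on simulated data with independent noise in each library. The fits with the replicate block were not tested in this way.

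The genes, the pathway lists and the marker lists were chosen with earlier results of these data known. All 10 genes are named, and from each pathway list the called genes with the largest rise and the largest fall, except some that are not reported here; the genes most alike are the 5 with the highest Pearson r to the mean of the 10. Alternatives covered scaling, filter, pseudocount, libraries left out, the replicate block, a medium spiny covariate and a length trend.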

Additional observations from a re-analysis of the deposited data

How the results depend on the processing

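Each comparison was repeated under 19 to 26 alternatives. Apart from fits that left out 1 library, 614 values of single genes kept their direction and their side of the threshold, 67 changed sign, 35 became calls and 10 lost the call. Of those that changed sign, 2 also became calls and 4 lost the call. The call by library number was lost for all 10 genes in the fit with the medium spiny markers as covariate, where the uncalled value of 4 also changed sign, and was kept by all 10 in every other alternative, leaving out 1 library included. The replicate block called 5 of the 10 genes in each genotype for polysome over input, as given above, and changed no other call of the 10 genes. The alternatives that combine the block with a covariate, a length trend or the removal of a number were chosen after seeing the data. The cause of the changes listed here was not tested.

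With TMM scaling, polysome over input in WT changed sign for Arpp21 (0.0047). In a fit of that genotype alone, the test called 1700 genes for polysome over input in TG. With the replicate block, the test called 1 gene for TG over WT in polysome RNA, 5638 genes (5 of the 10) for polysome over input in TG and 5052 genes (5 of the 10) for polysome over input in WT. With the medium spiny covariate, TG over WT in polysome RNA changed sign for Ppp1r1b (-0.021), Pde10a (-0.052), Gnal (-0.051), Rgs9 (-0.040), Gng7 (-0.081) and Arpp21 (-0.045). TG over WT in input did so for Ppp1r1b (-0.13), Pde10a (-0.028), Pde1b (-0.060), Gnal (-0.059), Rgs9 (-0.046), Arpp19 (-0.10), Arpp21 (-0.10) and Rasd2 (-0.050). The number 2 difference did so for Pde10a (-0.59), Pde1b (-0.76), Gnal (-0.093) and Rgs9 (-1.05). The test called 478 genes (0 of the 10) for the number 2 difference. With the replicate block and the covariate together, TG over WT in polysome RNA changed sign for Ppp1r1b (-0.18), Pde10a (-0.0034), Pde1b (-0.043), Gng7 (-0.46), Arpp21 (-0.10) and Rasd2 (-0.18). TG over WT in input did so for Ppp1r1b (-0.35), Pde10a (-0.23), Pde1b (-0.51), Gnal (-0.10), Rgs9 (-0.39), Gng7 (-0.43), Arpp19 (-0.11), Arpp21 (-0.34) and Rasd2 (-0.23). The test called 3 genes for TG over WT in polysome RNA and 8 genes for TG over WT in input.

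With the length trend removed, polysome over input in TG changed sign for Pde1b (0.064), Gnal (0.32) and Arpp21 (0.52). Polysome over input in WT did so for Gnal (0.29) and Arpp21 (0.49). The interaction did so for Pde10a (0.031), Gnal (0.033) and Arpp21 (0.034). The test called 1421 genes for polysome over input in WT. With the replicate block as well, the same genes had the same values. The test called 3 of the 10 for polysome over input in TG and 3847 genes (3 of the 10) for polysome over input in WT. With the replicate block and the coding length trend removed, polysome over input in TG changed sign for Gnal (0.17), Adcy5 (0.065) and Arpp21 (0.053). Polysome over input in WT did so for Gnal (0.14), Adcy5 (0.052) and Arpp21 (0.060). The test called 3 of the 10 for polysome over input in TG and 3581 genes (4 of the 10) for polysome over input in WT. In the replicate block fit that left out number 1, TG over WT in polysome RNA changed sign for Gng7 (-0.22) and Arpp21 (-0.011). TG over WT in input did so for Ppp1r1b (-0.011), Pde1b (-0.016) and Arpp21 (-0.017). The test called 3 genes for TG over WT in polysome RNA, 1 gene for TG over WT in input, 1 of the 10 for polysome over input in TG and 2 of the 10 for polysome over input in WT. In the replicate block fit that left out number 2, polysome over input in TG changed sign for Arpp21 (0.011). Polysome over input in WT did so for Arpp21 (0.087). The test called 6 genes for TG over WT in input, 1321 genes (1 of the 10) for polysome over input in TG and 375 genes for polysome over input in WT. In the replicate block fit that left out number 3, polysome over input in TG changed sign for Pde1b (0.026) and Gnal (0.038). Polysome over input in WT did so for Pde1b (0.043) and Gnal (0.060). The test called 89 genes for TG over WT in polysome RNA, 2 genes for TG over WT in input, 4 of the 10 for polysome over input in TG and 3669 genes (4 of the 10) for polysome over input in WT.

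Leaving out 1 library at a time changed the sign of many small differences. These fits had no block, so the libraries left were not balanced by number between groups. For TG over WT in polysome RNA the ranges were Ppp1r1b -0.12 to 0.69, Pde10a -0.28 to 0.65, Pde1b -0.14 to 0.75, Gnal -0.21 to 0.47 and Adcy5 -0.018 to 0.62. Others were Rgs9 -0.27 to 0.74, Gng7 -0.31 to 0.27, Arpp19 -0.00023 to 0.38, Arpp21 -0.16 to 0.39 and Rasd2 -0.12 to 0.65. Genes called were 0 to 1. For TG over WT in input the ranges were Ppp1r1b -0.24 to 0.54, Pde10a -0.16 to 0.57, Pde1b -0.16 to 0.55, Gnal -0.16 to 0.44 and Rgs9 -0.15 to 0.46. Others were Gng7 -0.072 to 0.60, Arpp19 -0.19 to 0.34, Arpp21 -0.19 to 0.44 and Rasd2 -0.20 to 0.60. Genes called were 0 to 1. For polysome over input in TG the ranges were Pde1b -0.42 to 0.36, Gnal -0.42 to 0.25, Adcy5 -0.55 to 0.011 and Arpp21 -0.33 to 0.26. Genes called were 1205 to 3263. For polysome over input in WT the ranges were Pde1b -0.61 to 0.27, Gnal -0.40 to 0.24, Adcy5 -0.58 to 0.051, Arpp21 -0.25 to 0.32 and Ppp1r1b -0.16 to 0.75. Genes called were 648 to 2566. For the interaction the ranges were Rasd2 -0.38 to 0.44, Pde10a -0.48 to 0.44, Gnal -0.35 to 0.33, Adcy5 -0.31 to 0.32 and Gng7 -0.58 to 0.089. Others were Arpp21 -0.35 to 0.28, Ppp1r1b -0.34 to 0.57, Pde1b -0.32 to 0.58, Rgs9 -0.42 to 0.59 and Arpp19 -0.16 to 0.37. Genes called were 0 to 2. With 3 libraries a group, 1 library could turn the sign of differences this small, and depth is known here only as an estimate.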
